A study of Mus musculus with 19 samples.

Results

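The VEGF ligands and receptors were examined as a family of 8 genes: the ligands Vegfa, Vegfb and Vegfc, the receptor tyrosine kinases Kdr, Flt1 and Flt4, and the co-receptors Nrp1 and Nrp2. Members were found by gene name, which gave 18 probes in 45 spots among the 41174 gene probes of the array, and 8 genes among 27574 gene names. The family was put together around Kdr, which was chosen by its log2 difference between AP5 and vehicle, one of the largest on the array. Contrasts with AP5 are therefore given as a description, with no test for any member. The other members entered by name and role.

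Dissociated hippocampal neurons of the mouse were kept 21 days in culture, treated for 6 h and read for RNA. The 19 arrays comprised 5 of neurons given 100 µM AP5, 4 given 100 nM NVP-AAM077 (NVP), 5 given 1 µM of the compound titled Ro25, and 5 given vehicle. NMDA receptors are calcium-permeable glutamate channels of excitatory synapses. AP5 blocks them by competing with glutamate, and NVP competes likewise but prefers, to a degree, channels containing GluN2A. The longer name given to Ro25 in the labels does not carry the number of the widely used GluN2B antagonist with that prefix, so its identity is not settled here. Doses differed between compounds, so their values are side by side and not dose-matched. On each array the neuron RNA was labelled red (Cy5) and a shared, commercial mouse reference RNA green (Cy3). Levels are given as the log2 ratio of neuron RNA over reference RNA on 1 probe, which orders samples for a gene but not genes against each other. Whether arrays of a group stem from separate cultures is not stated, so a p-value here reflects the spread between these samples alone, which may be technical.

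VEGF-A signals mainly through the kinase encoded by Kdr (VEGFR2). The kinase encoded by Flt1 (VEGFR1) binds VEGF-A and VEGF-B tightly and signals weakly, so that it also acts as a sink for ligand, while VEGF-C acts through the kinase encoded by Flt4 (VEGFR3). The neuropilins Nrp1 and Nrp2 bind both VEGFs and class 3 semaphorins and serve in vessel growth and axon guidance. In brain these receptors are best known from endothelial cells, and neurons can carry them too.

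The start regions of Kdr and Flt1 are printed because these paired receptors bind the same ligand and their transcripts had different patterns over the treatments. RefSeq start regions of the GRCm38.p6 assembly were matched for all 8 members, with 9 entries because Vegfa has a pair. Each runs from 250 bases before to 50 bases after a transcript start, on the minus strand of chromosome 5, at chr5:75978406-75978705 for Kdr and chr5:147725962-147726261 for Flt1. Capitals mark every match, on either strand, to the cyclic AMP response element TGACGTCA, the MEF2 motif (CTA and TAG with 4 bases of any kind between them), the hypoxia response cores ACGTG and GCGTG, or the SP1 box GGGCGG.
Kdr: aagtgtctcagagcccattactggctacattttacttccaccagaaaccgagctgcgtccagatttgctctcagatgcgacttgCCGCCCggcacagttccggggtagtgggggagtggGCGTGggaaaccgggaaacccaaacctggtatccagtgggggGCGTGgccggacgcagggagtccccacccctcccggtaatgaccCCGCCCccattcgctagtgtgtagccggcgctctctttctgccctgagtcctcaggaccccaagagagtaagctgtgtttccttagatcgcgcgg
Flt1: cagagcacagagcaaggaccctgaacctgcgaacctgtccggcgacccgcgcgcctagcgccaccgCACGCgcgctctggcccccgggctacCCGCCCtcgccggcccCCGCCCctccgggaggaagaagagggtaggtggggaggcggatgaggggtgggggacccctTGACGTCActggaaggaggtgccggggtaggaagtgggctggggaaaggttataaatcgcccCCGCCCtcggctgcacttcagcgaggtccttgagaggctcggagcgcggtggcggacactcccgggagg

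The Kdr region held 2 matches to GCGTG and 2 to GGGCGG, and none to the other motifs. The Flt1 region held 1 match to TGACGTCA, 1 to GCGTG and 3 to GGGCGG. No motif overlapped another in either region. Over the 32851 start regions of this length, TGACGTCA occurred in 1.79%, the MEF2 motif in 3.69%, ACGTG in 19.6%, GCGTG in 32.4% and GGGCGG in 35.7%. The G and C share was 60.7% for Kdr and 70.7% for Flt1, against a median of 52.7% over all start regions. These are matches of letters, and binding was not measured.

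On each array 24924 to 28531 probes had red signal well above background. A probe was kept where this held on at least 4 arrays, which left 19197 genes, 14 of the 18 member probes and 7 of the 8 members. Arrays were run on 5 slides. No slide held both AP5 and vehicle or both NVP and vehicle, so slide and treatment are tied in those comparisons. In every group 1 array stood apart in the mean of 14 astrocyte markers, at 3.01 (AP5 5), 2.97 (NVP 4), 2.82 (Ro25 3) and 2.90 (vehicle 3), whereas the other 15 arrays lay between 3.63 and 4.30. All 14 neuron markers were well above background on all 19 arrays.

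Kdr was highest in AP5-treated neurons, intermediate with NVP and Ro25, and lowest with vehicle. Its log2 ratio was 3.64, 3.35, 3.20, 3.14 and 3.75 on the 5 AP5 arrays. It was 2.58, 2.47, 2.53 and 2.61 with NVP, and 2.82, 2.15, 2.68, 2.59 and 2.34 with Ro25. On the vehicle arrays it was 1.99, 2.18, 2.17, 2.47 and 1.86. Every AP5 array lay above every array of the other groups. The share of all genes whose groups did not overlap was 11.9% between AP5 and vehicle, 8.12% between AP5 and NVP and 6.83% between AP5 and Ro25. Every NVP array lay above every vehicle array, the closest pair being 2.469 (NVP 2) and 2.468 (vehicle 4). Between NVP and vehicle, groups did not overlap for 2.75% of all genes. Nothing is read from this separation, since the vehicle arrays took part in the choice of Kdr. Of the Ro25 arrays, 3 of 5 lay above all vehicle arrays and 2 lay within the vehicle range.

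**Figure D1:**
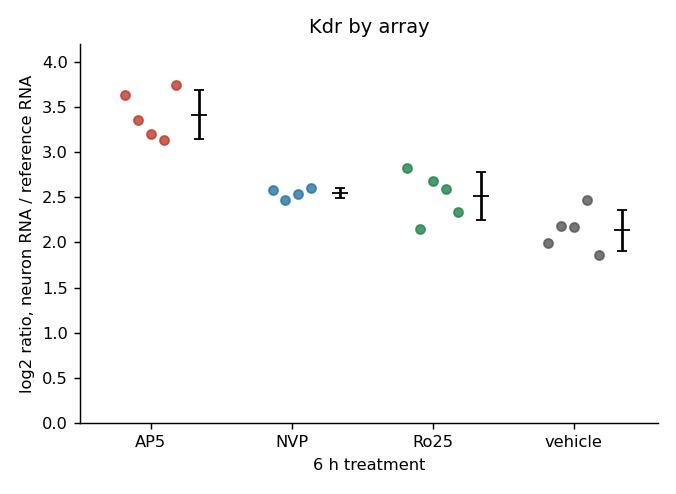
Log2 ratio of neuron RNA over reference RNA for Kdr (vertical axis) by 6 h treatment (horizontal axis), with 1 circle per array and the group mean ± SD in black. The 5 AP5 arrays sit between 3.14 and 3.75, above all other arrays, and the vehicle arrays sit between 1.86 and 2.47.

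The group means were 3.42 ± 0.27 with AP5 (SD, n = 5), 2.55 ± 0.06 with NVP (n = 4), 2.52 ± 0.27 with Ro25 (n = 5) and 2.13 ± 0.23 with vehicle (n = 5). The difference between AP5 and vehicle was 1.28 (SE 0.14), which is 2.43-fold with a 95% interval of 2.00 to 2.96. This ranked Kdr 4 among rises and 11 by size among 19197 genes, and this is the value by which it was chosen. It exceeded NVP by 0.87 (SE 0.14) and Ro25 by 0.90 (SE 0.14). The differences from vehicle were 0.41 (SE 0.14) with NVP and 0.38 (SE 0.14) with Ro25, about 1.33-fold and 1.30-fold. These comparisons share the vehicle or AP5 arrays that chose Kdr and are not tested.

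NVP and Ro25, neighbours in this order, could be compared by test, since neither group took part in that choice. Kdr differed by 0.03 (SE 0.14), with a 95% interval of -0.27 to 0.33 on the log2 scale and an unadjusted limma p of 0.825 (adjusted p = 1.00). The interval leaves room for a difference of up to 1.26-fold.

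Values within slides and with slide in the model are as follows. No slide gives an AP5 against vehicle value. AP5 5 was the only AP5 array on a slide with another group, and vehicle 2 the only such vehicle array. A fit with slide as a fixed block therefore draws every difference from vehicle from vehicle 2, and that of AP5 also from AP5 5. On the slide that held AP5 5 with NVP 1 and NVP 3, Kdr was 1.19 higher in AP5. On the slide with 2 NVP and 2 Ro25 arrays the difference was -0.17, NVP minus Ro25, and on the slide with 3 Ro25 arrays and vehicle 2 it was 0.21, Ro25 minus vehicle. With slide as a fixed block, the AP5 difference from vehicle was 1.23 (SE 0.39), the NVP difference 0.04 (SE 0.31) and the Ro25 difference 0.21 (SE 0.23). With all spots in the background fit, the Ro25 difference from vehicle turned to -0.14 (SE 0.38) and NVP exceeded Ro25 by 0.54 (SE 0.40).

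The Kdr probe that gave these values lies at chr5:76214981-76215040 (mm8, minus strand) and is spotted 10 times per array. The SD between its spots had a median of 0.109 over arrays and a highest value of 0.216. Red was well above background on all 19 arrays, with mean net red signals of 1096 with AP5, 588 with NVP, 551 with Ro25 and 403 with vehicle. The reference RNA gave little Kdr signal, well above background on 14 arrays. Its green signal differed between AP5 and vehicle arrays by 0.00 (SE 0.03) on the log2 scale, while the red signal alone differed by 1.09 (SE 0.11). With so little green signal and the offset of 50 added to it, a change in that channel would hardly show. A second Kdr probe, at chr5:76243311-76243370, also spotted 10 times, was not well above background on any array and gives no second reading.

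In bulk RNA, fewer cells of a type and less RNA per cell cannot be told apart, so the markers of endothelial cells are given beside Kdr. Of 20 markers on the array, 15 were measured, 8 were well above background on every array and 3 on none, namely Cdh5, Tie1 and Erg. Their mean log2 ratio ranged from -0.75 to -0.64 over AP5 arrays, -0.74 to -0.72 with NVP, -0.77 to -0.65 with Ro25 and -0.74 to -0.63 with vehicle. Their summed net red signal, not scaled for the brightness of each array, ranged from 7285 to 9072 with AP5, 7055 to 8923 with NVP, 5701 to 7918 with Ro25 and 5947 to 7226 with vehicle. With AP5, 0 of the 15 rose and 1 fell, Eng, a TGF-beta co-receptor of endothelial cells (-0.34, SE 0.10, limma adjusted p = 0.0217), and 4 of the 15 had an unadjusted p under 0.05, as did 6022 of all 19197 genes. With slide as a fixed block the difference of Eng was 0.025. The part of endothelial cells in the Kdr values was not tested. With NVP or Ro25, none of the 15 passed, and 1 with NVP and 2 with Ro25 had an unadjusted limma p under 0.05, as did 1591 and 1182 of all genes.

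Vegfa, the main ligand of Kdr, had overlapping levels in all 4 groups. On its brightest probe (chr17:45481019-45481078, mm8) the log2 ratio was -1.52, -1.41, -1.38, -1.38 and -1.57 with AP5, and -1.36, -1.11, -1.26 and -1.67 with NVP. It was -1.48, -1.06, -1.58, -1.35 and -1.34 with Ro25, and -1.12, -1.41, -1.44, -1.29 and -1.05 with vehicle. With AP5 the arrays lay close together, inside the NVP and Ro25 ranges. AP5 1 and AP5 5 lay below all vehicle arrays, and the other AP5 arrays lay inside the vehicle range. The difference from vehicle was -0.19 (SE 0.11, not tested) with AP5, -0.09 (SE 0.11, limma adjusted p = 0.946) with NVP and -0.10 (SE 0.11, adjusted p = 1.00) with Ro25. A probe spotted 10 times (chr17:45482144-45482203) gave -0.17 (SE 0.13), 0.00 (SE 0.14) and -0.11 (SE 0.13) in the same order, and a probe at chr17:45489008-45489067 gave -0.14, 0.03 and -0.10. All 3 probes were below vehicle in the mean with AP5, by 0.14 to 0.19.

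Vegfc, a ligand of Flt4 that can also bind Kdr, was measured by 1 probe (chr8:55684877-55684936, mm8). Its log2 ratio was -1.97, -1.98, -2.09, -2.11 and -2.51 with AP5, and -1.78, -1.90, -1.76 and -2.39 with NVP. It was -1.84, -1.87, -2.28, -1.82 and -1.76 with Ro25, and -1.83, -1.92, -2.31, -1.74 and -1.73 with vehicle. In every group 1 array lay far below the rest, the same array that was low in astrocyte markers. The differences from vehicle were -0.22 (SE 0.14, not tested) with AP5, -0.05 (SE 0.15, adjusted p = 0.988) with NVP and 0.00 in size (SE 0.14, adjusted p = 1.00) with Ro25. Without those 4 arrays, a choice made after seeing the data, the AP5 difference from vehicle was -0.23 (SE 0.06), while with all arrays and all spots in the background fit it was -0.13 (SE 0.18). Without those arrays it was -0.00 (SE 0.06) with NVP and -0.01 (SE 0.06) with Ro25.

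Vegfb, a ligand of Flt1, gave readings that depend on the probe. The brightest probe (chr19:7049514-7049573, mm8) read 0.97, 0.94, 0.77, 0.43 and 0.68 with AP5, and 0.69, 0.48, 0.96 and 0.58 with NVP. It read 0.88, 0.47, 0.61, 0.74 and 0.84 with Ro25, and 0.85, 0.91, 0.52, 0.71 and 0.41 with vehicle. These ranges overlap almost fully, and the differences from vehicle were 0.08 (SE 0.12, not tested) with AP5, -0.00 (SE 0.13, adjusted p = 0.999) with NVP and 0.03 (SE 0.12, adjusted p = 1.00) with Ro25. The other probe (chr19:7049799-7049858) averaged -0.81 ± 0.27 with AP5 (SD, n = 5) against -0.48 ± 0.18 with vehicle (n = 5), a difference of -0.33 (SE 0.11). The probes thus differ in sign for AP5, and the mean of both probes gave -0.13.

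**Figure D2:**
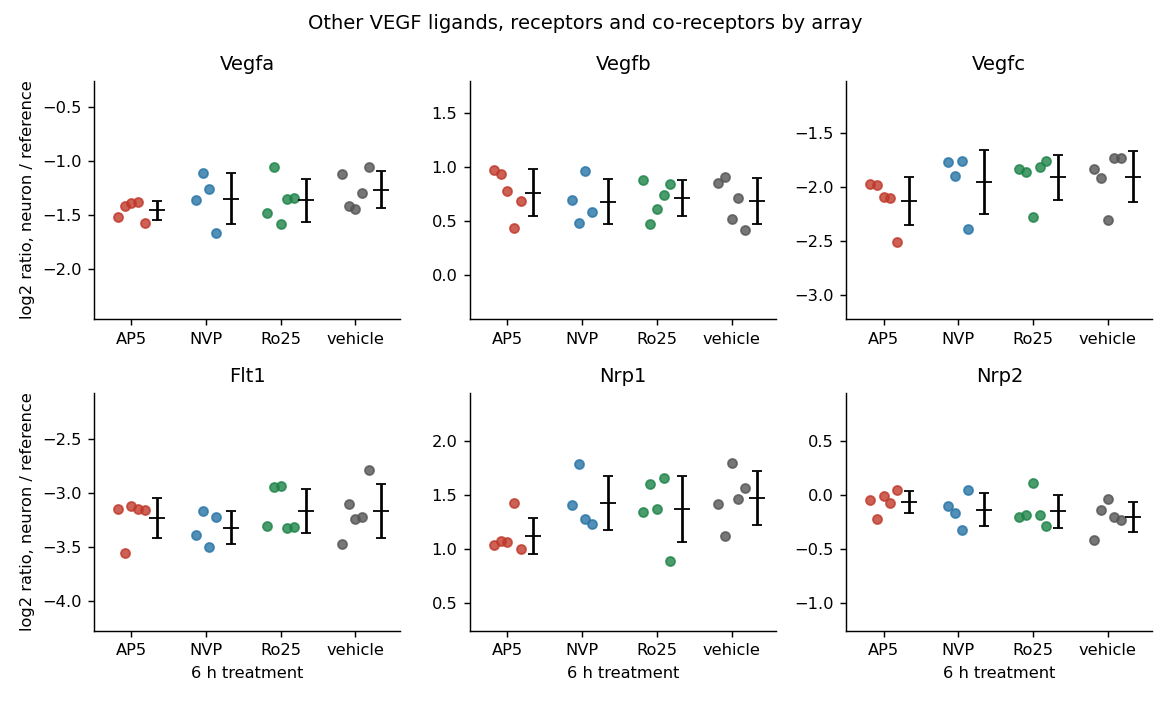
Log2 ratio of neuron RNA over reference RNA (vertical axes, each 2.2 log2 units high) for the 6 other measured members, by 6 h treatment, with 1 circle per array and the group mean ± SD in black. The groups overlap for every gene, and 1 low array per group is seen for Vegfc.

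Flt1, the other receptor of VEGF-A, had similar means in all 4 groups. Its brightest probe (chr5:147872564-147872623, mm8) averaged -3.23 ± 0.18 with AP5 (SD, n = 5), -3.32 ± 0.15 with NVP (n = 4), -3.17 ± 0.20 with Ro25 (n = 5) and -3.17 ± 0.25 with vehicle (n = 5). Over arrays the ranges were -3.56 to -3.13 with AP5, -3.50 to -3.17 with NVP, -3.32 to -2.94 with Ro25 and -3.47 to -2.79 with vehicle. All 4 ranges overlap. The difference from vehicle was -0.06 (SE 0.12, not tested) with AP5 and its 95% interval was -0.31 to 0.19. With NVP it was -0.15 (SE 0.13, adjusted p = 0.851) and with Ro25 0.00 (SE 0.12, adjusted p = 1.00). In the red channel alone the sign for AP5 turned, at 0.20 (SE 0.13).

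Of the 4 other Flt1 probes, the one at chr5:147872637-147872696 gave 0.01 (SE 0.09) with AP5 and -0.19 (SE 0.10, limma adjusted p = 0.638) with NVP. The probe at chr5:147948554-147948613 was well above background on 5 of 5 AP5 arrays and 4 of 4 NVP arrays, against 1 of 5 Ro25 arrays and 2 of 5 vehicle arrays. Its mean net red signals were close, at 36.8, 36.9, 28.6 and 31.4 in that order, so these counts turn on signals near background. The remaining 2 probes were well above background on 1 and 0 of the 19 arrays.

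Flt4, the receptor of VEGF-C, was not well above background on any of the 19 arrays (probe at chr11:49495567-49495626, mm8). It therefore has only a bound here, and no fold is given.

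Nrp1, a co-receptor of Kdr, had a lower mean with AP5 than with vehicle on each of its 3 probes. The brightest (chr8:131388840-131388899, mm8) read 1.04, 1.07, 1.07, 1.42 and 1.01 with AP5, and 1.41, 1.79, 1.28 and 1.24 with NVP. It read 1.34, 1.61, 1.37, 1.65 and 0.89 with Ro25, and 1.41, 1.12, 1.80, 1.46 and 1.57 with vehicle. Of the 5 AP5 arrays 4 lay below all vehicle arrays and AP5 4 lay among them. The difference was -0.35 (SE 0.14), with a 95% interval of -0.65 to -0.05, or 0.78-fold.

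The other Nrp1 probes differed by -0.27 (SE 0.12, chr8:131354463-131354522) and -0.28 (SE 0.07, chr8:131246199-131246258) between AP5 and vehicle, again with no test. On the last of these the means were 1.37 ± 0.10 with AP5 (SD, n = 5), 1.67 ± 0.13 with NVP (n = 4), 1.57 ± 0.08 with Ro25 (n = 5) and 1.66 ± 0.13 with vehicle (n = 5). With NVP the brightest probe differed from vehicle by -0.05 (SE 0.15, adjusted p = 0.989) and with Ro25 by -0.10 (SE 0.14, adjusted p = 1.00).

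Nrp2, the other co-receptor, binds VEGF-C as well as class 3 semaphorins. Its probe (chr1:62752831-62752890, mm8) averaged -0.06 ± 0.10 with AP5 (SD, n = 5), -0.14 ± 0.15 with NVP (n = 4), -0.15 ± 0.15 with Ro25 (n = 5) and -0.20 ± 0.14 with vehicle (n = 5). The groups overlapped, and the differences from vehicle were 0.14 (SE 0.08, not tested), 0.07 (SE 0.09, adjusted p = 0.948) and 0.06 (SE 0.08, adjusted p = 1.00).

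**Figure D3:**
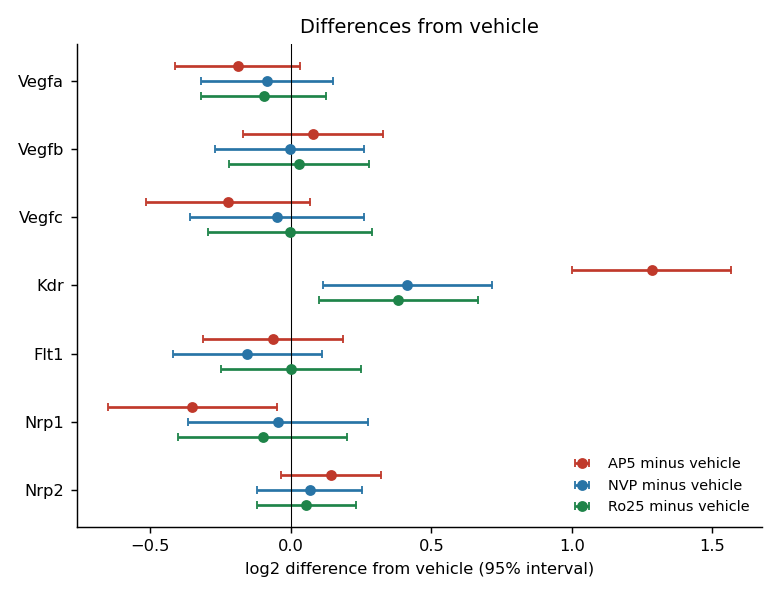
Log2 difference from vehicle (horizontal axis) for the 7 measured members, with 95% intervals of the common limma fit for AP5, NVP and Ro25. Kdr with AP5 stands at 1.28, while the other 6 members lie between -0.35 and 0.14 with AP5.

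Set against all genes, 1 of the 7 measured members, Kdr, was among the genes called between AP5 and vehicle, where 18% of 19197 genes were called (10.8% higher, 7.23% lower). Kdr was also the 1 member whose AP5 and vehicle arrays did not overlap, which held for 11.9% of genes. With every kept probe fitted by itself, 4867 of 28640 probes were called between AP5 and vehicle, and 1068 between AP5 and NVP. The second Vegfb probe (-0.33) and the third Nrp1 probe (-0.28) were also among the former, and this Nrp1 probe (-0.30) among the latter. Nothing is read from these counts, since AP5 against vehicle chose Kdr and contrasts with AP5 are only described for members. Between NVP and vehicle, 0 of 6 tested members passed, as did 0% of all genes in limma, with 0 members and 1591 genes at an unadjusted p under 0.05. Groups did not overlap for 1 of the 7 members, Kdr, and for 2.75% of genes. Nothing is read from this count either, since the vehicle arrays took part in the choice of Kdr. Between Ro25 and vehicle 0 of 6 members passed, and 0% of all genes, groups did not overlap for 0 members and 0.813% of genes, with 0 members and 1182 genes at an unadjusted p under 0.05. Between NVP and Ro25 the counts were 0 of 7 and 0%, with groups that did not overlap for 0 members and 0.703% of genes, and with 0 members and 300 genes at an unadjusted p under 0.05. With slide as a fixed block, the AP5 difference rests on AP5 5, an array low in astrocyte markers, and on vehicle 2. It was -0.16 (SE 0.35) for Vegfa, -0.69 (SE 0.35) for Vegfb and -1.10 (SE 0.38) for Vegfc. For Flt1, Nrp1 and Nrp2 it was 0.44 (SE 0.37), -0.16 (SE 0.43) and 0.41 (SE 0.27) in that order. The 6 members other than Kdr differed from vehicle by at most 0.15 in size with NVP and 0.10 with Ro25.

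On the arrays low in astrocyte markers, the ligands Vegfa and Vegfc were the lowest of their group and the co-receptor Nrp2 the highest. Some margins were small. Vegfa read -1.44 on vehicle 3 and -1.41 on vehicle 2, and Nrp2 read 0.05 on AP5 5 and -0.01 on AP5 3. Vegfc on the astrocyte-low array of each group was -2.51 (AP5 5), -2.39 (NVP 4), -2.28 (Ro25 3) and -2.31 (vehicle 3), below the mean of the other arrays of its group by 0.46 to 0.58. Vegfa was lowest of its group on the same 4 arrays with each of its 3 probes. On the brightest it read -1.57, -1.67, -1.58 and -1.44 there, lower by 0.15 to 0.43. The dimmer Vegfb probe was also lowest in all 4 groups. Nrp2 ran the other way, highest in all 4 groups, at 0.05, 0.05, 0.11 and -0.03, higher by 0.14 to 0.33. Kdr was the highest of its group on 2 of these arrays and the lowest on none. It lay above the mean of the other arrays in all 4 groups, by 0.05 to 0.42. The Nrp1 probes showed no common direction.

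**Figure D4:**
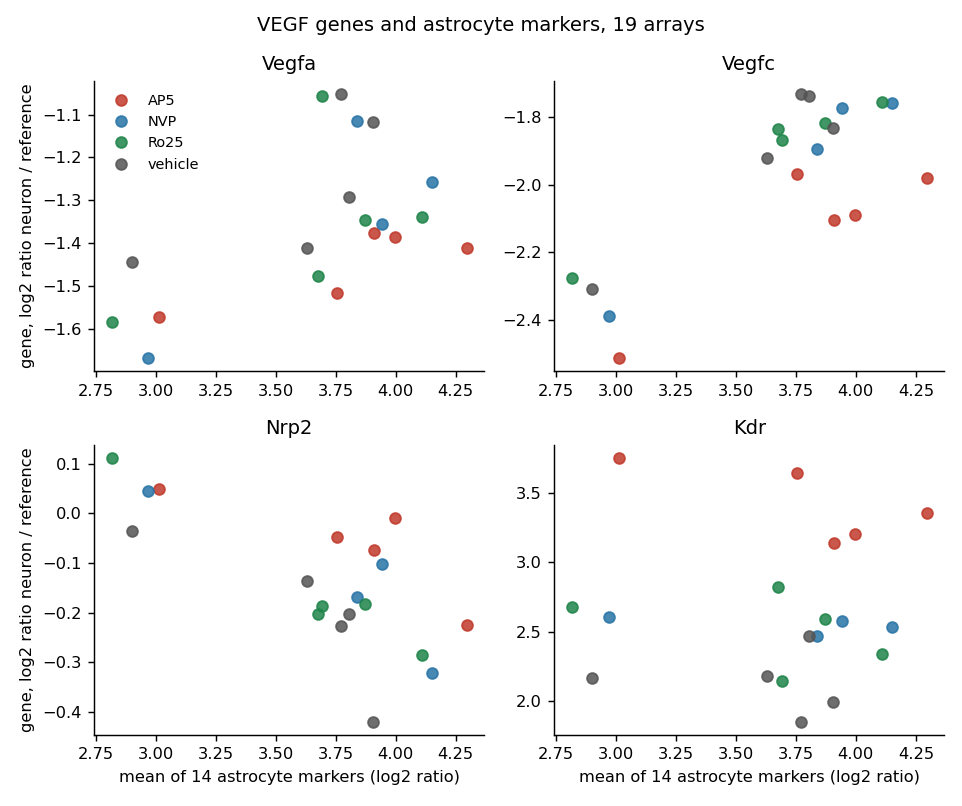
Log2 ratio of Vegfa, Vegfc, Nrp2 and Kdr (vertical axes) against the mean log2 ratio of 14 astrocyte markers (horizontal axes), with 1 circle per array coloured by treatment. The 4 arrays with marker means from 2.82 to 3.01 hold the lowest Vegfa and Vegfc value of each group and the highest Nrp2 value.

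Since these 4 arrays form a cluster of their own, relations were computed over the other 15 arrays, as deviations from group means, with a permutation of values within groups, for 7 members. Nrp2 gave Pearson r = -0.73 (permutation p = 0.0035, adjusted p = 0.0245) and Spearman rho = -0.51 (permutation p = 0.063, adjusted p = 0.22), and r = -0.62 without the 2 arrays farthest from the median. Vegfc gave r = 0.47 (permutation p = 0.0916, adjusted p = 0.214) and rho = 0.36 (permutation p = 0.215, adjusted p = 0.502), with r = 0.31 without the 2 farthest. Vegfa gave r = 0.09 (permutation p = 0.769, adjusted p = 0.769) and rho = 0.22 (permutation p = 0.464, adjusted p = 0.689), with r = 0.17 without the 2 farthest. Flt1 had r = -0.64 (permutation p = 0.0185, adjusted p = 0.0649) and rho = -0.64 (permutation p = 0.0211, adjusted p = 0.148), and r = -0.53 without the 2 farthest. For Vegfa the relation thus rests on the 4 low arrays. For Kdr r was -0.21 (permutation p = 0.523, adjusted p = 0.61) and rho -0.21 (permutation p = 0.507, adjusted p = 0.689), with r = -0.19 without the 2 farthest. The brightest Vegfb probe gave r = 0.32 (permutation p = 0.318, adjusted p = 0.445) and rho = 0.13 (permutation p = 0.689, adjusted p = 0.689), with r = 0.18 without the 2 farthest. The brightest Nrp1 probe gave r = -0.40 (permutation p = 0.22, adjusted p = 0.386) and rho = -0.14 (permutation p = 0.671, adjusted p = 0.689), with r = -0.08 without the 2 farthest.

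Leaving out the astrocyte-low array of each group gave an AP5 difference of 1.21 (SE 0.15) for Kdr, -0.20 (SE 0.09) for Vegfa and -0.24 (SE 0.16) for Nrp1. The part of astrocytes in the values of the other members was not tested beyond these figures.

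The genes whose pattern over the 19 arrays was most like that of Kdr were Oprl1, the nociceptin receptor (Pearson r = 0.967), Dnajc28, a J-domain protein (0.963), Aph1c, a subunit of gamma-secretase (0.957), Aagab, which helps assemble adaptor complexes (0.957), and Hdhd3, a member of the haloacid dehalogenase-like family (0.955). These correlations span the treatment groups and are a description, with no p. Within groups, as deviations from group means, they were 0.83, 0.84, 0.76, 0.80 and 0.81 in that order. Their log2 differences between AP5 and vehicle were 0.88, 1.04, 0.52, 0.75 and 0.53. These genes were picked for the highest r, so it was fixed in advance that members fall below them over the 19 arrays. Within groups Kdr had r = 0.39 with Vegfb, 0.35 with Nrp2, -0.20 with Flt1, -0.21 with Nrp1, -0.28 with Vegfc and -0.68 with Vegfa. As examples of genes driven by synaptic activity, the neurotrophin Bdnf differed by -1.79 (SE 0.13) between AP5 and vehicle in limma. The nuclear receptor Nr4a1 differed by -1.45 (SE 0.08). Both were named with earlier results of these data known, so their values are a description, in a comparison where slide and treatment are tied.

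Genes that act with the VEGF receptors were taken as lists by role. Of 2 other ligands, Pgf, the placental growth factor that binds Flt1, was 0.22 higher with AP5 (SE 0.07, adjusted p = 0.0384), with arrays of both groups overlapping, and Vegfd did not pass. With slide as a fixed block the direction of Pgf turned, at -0.21 (SE 0.18). Of 45 mediators of receptor signalling, 7 rose and 2 fell with AP5, where 10.8% of all genes rose and 7.23% fell, with a median of -0.04 against 0.01 for all genes. Those with the smallest p were Nos3, the endothelial nitric oxide synthase (0.44, SE 0.06, adjusted p = 2.6e-05), Pik3r1, a regulatory subunit of PI3 kinase (0.35, SE 0.06, adjusted p = 0.000392), and the phosphatase gene Ptpn6, which fell (-0.44, SE 0.10, adjusted p = 0.00577) but stood at 0.13 (SE 0.30) with slide as a fixed block.

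Of 14 semaphorin and plexin genes, some of which share the neuropilins with VEGF, 0 rose and 2 fell with AP5, again beside 10.8% and 7.23% of all genes. These were Plxnd1, a plexin receptor of vessels and neurons (-0.49, SE 0.12, adjusted p = 0.00808), and its ligand Sema3e (-0.24, SE 0.07, adjusted p = 0.0187). Of 22 other angiogenic factors and receptors 1 rose and 6 fell, beside 10.8% and 7.23% of all genes, with a median of -0.17 against 0.01. They included the secreted proteases Adamts1 (-1.12, SE 0.12, adjusted p = 3.43e-06) and Adamts8 (1.19, SE 0.19, adjusted p = 0.000249), both known for anti-angiogenic activity, and the growth factor gene Pdgfa (-0.36, SE 0.06, adjusted p = 0.00024). Of 19 hypoxia-regulated genes, a group to which Vegfa also belongs, 2 rose and 3 fell, beside the same shares of all genes, with a median of -0.02. Ankrd37, a target of hypoxia-inducible factors, fell (-1.22, SE 0.09, adjusted p = 3.69e-08), as did the carbonic anhydrase gene Car9 (-0.61, SE 0.14, adjusted p = 0.00418), and Pdk1, which restrains pyruvate oxidation, rose (0.38, SE 0.09, adjusted p = 0.00444).

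**Figure D5:**
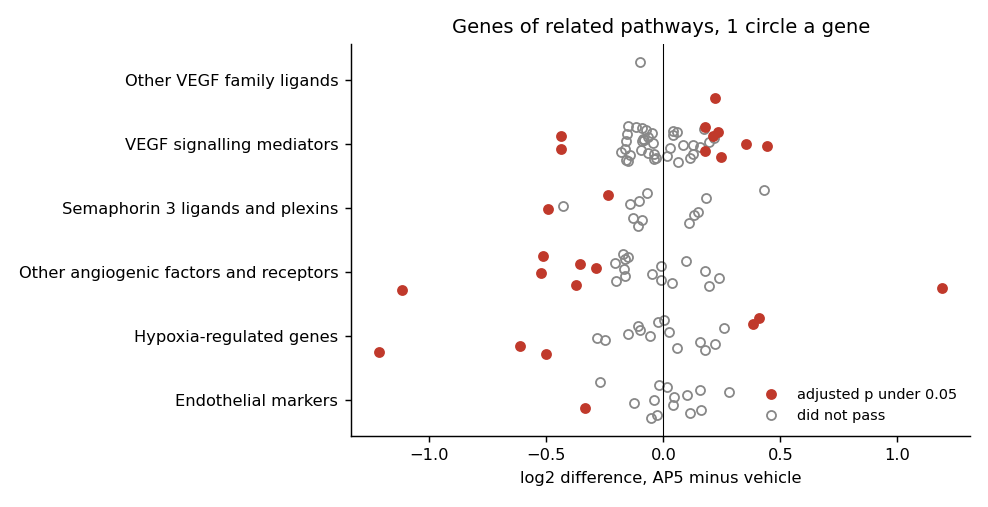
Log2 difference between AP5 and vehicle (horizontal axis) for genes of 6 lists related to VEGF signalling, with 1 circle per gene, filled where the limma adjusted p was under 0.05. Called genes lie on both sides of 0 among mediators (7 rose, 2 fell), and 6 of the 7 called angiogenic genes fell.

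None of the genes in these lists passed in limma with NVP or Ro25. At an unadjusted p under 0.05, NVP had 1 mediator, 1 semaphorin or plexin, 4 angiogenic and 2 hypoxia-regulated genes, and Ro25 had 1, 1, 0 and 1 in that order, beside 1591 and 1182 of all 19197 genes. The smallest p among the mediators was that of Ptpn6 in both, at -0.26 (SE 0.11, adjusted p = 0.517) with NVP and -0.31 (SE 0.10, adjusted p = 0.609) with Ro25. Among hypoxia-regulated genes it was Car9, at -0.50 (SE 0.14, adjusted p = 0.345) with NVP and -0.45 (SE 0.14, adjusted p = 0.549) with Ro25. The angiogenic factor Esm1 gave -0.42 (SE 0.16, adjusted p = 0.449) with NVP and -0.31 (SE 0.15, adjusted p = 0.816) with Ro25. Sema3c differed by -0.19 (SE 0.08, adjusted p = 0.491) with NVP, and Plxnd1 by -0.35 (SE 0.12, adjusted p = 0.654) with Ro25.

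The AP5 counts of these lists depend on the fit. With slide as a fixed block none of these genes passed, among 10 calls over all genes. With all spots in the background fit, 2 mediators rose and 0 fell, 0 angiogenic genes rose and 2 fell, and 2 hypoxia genes rose and 1 fell. The semaphorin and plexin list and Pgf then had no call.

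Markers of other cells were read in the same fit. With AP5, 4 of 14 neuron markers rose, led by Syt1 (0.45, SE 0.07, adjusted p = 0.000354), Rbfox3 (0.40) and Tubb3 (0.26). Of 14 astrocyte markers 3 rose, Slc1a2 (0.38, SE 0.08, adjusted p = 0.0023), Mlc1 (0.39) and Ntsr2 (0.47), and of 12 oligodendrocyte lineage markers 2 rose, Sox10 (0.56) and Olig2 (0.27). Of 11 microglia markers 3 fell, Fcer1g (-0.53), Tmem119 (-0.29) and Trem2 (-0.26), and of 10 pericyte markers Des fell (-0.35). These calls depend on the fit. With all spots in the background fit, with 1 spread across arrays or with slide as a fixed block, no marker of any of these lists passed. In the red channel alone 0 neuron markers rose and 3 fell, whereas with the deposited log ratio 10 rose. For all of the named markers but Fcer1g and Tmem119 the direction turned in the red channel alone or with slide as a fixed block. The latter fit rests on AP5 5, an array low in astrocyte markers, and on vehicle 2. The part of these other cells in the results above was not tested. With NVP or Ro25 no marker passed in limma. At an unadjusted p under 0.05, NVP had 5 neuron, 1 astrocyte, 0 oligodendrocyte, 3 microglia and 1 pericyte marker, beside 1591 of 19197 genes. Ro25 had 5, 1, 0, 5 and 1 in that order, beside 1182 of 19197 genes.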

How the data were processed

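Two-colour Agilent mouse arrays with 45018 features were read from the scanner files. Per the file headers, the authors' scanner software, Feature Extraction 9.5.3.1, gave each spot's red and green intensity and a deposited log10 ratio (red to green). Version 11.0 of it is named in the submitters' processing notes. The authors' processed table holds log2 values whose centring is not given in the sources used here. Its columns followed the computed log2 ratios with r of 0.9986 to 0.9998 across probes and medians of 0.0345 to 0.0478. Probe positions are those of mm8, and the exon of each probe was not analysed here.

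Mean intensities were used as deposited. Spots marked as outliers or not uniform (117 to 266 per array, 1642 on vehicle 5) were left out, the background was corrected by normexp with an offset of 50, and loess was run within arrays. Spots of 1 probe were averaged. For genes with several probes, the brightest probe on average stood for the gene, among those with red well above background on at least 4 arrays. Of 41174 probes, 23374 were named through accessions, 6733 through symbols and 2918 through synonyms in a RefSeq table of GRCm38.p6, and 8149 kept the name in the file. Median red signals ran from 135.5 to 177.8, and the number of arrays limits precision.

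Tests used limma (version 3.58.1; R 4.3.3), with 1 mean per group over all 19 arrays, two-sided tests and Benjamini-Hochberg adjustment over 19197 genes at 0.05. No p is given for members in contrasts with AP5, nor for Kdr against vehicle. The fit was tested on simulated data. Alternatives changed the background, scaling, channel, filter, probe choice, slide and replicate blocks, groups fitted and arrays left out. One, without the astrocyte-low arrays, was chosen after seeing the data. Correlations between arrays gave no sign that replicate numbers pair them. Members, lists, Bdnf and Nr4a1 were chosen with earlier results of these data known. Named genes are all members, up to 3 called genes per list with the smallest p (else the gene with the smallest p), the 5 genes most correlated with Kdr, and Bdnf and Nr4a1.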

Additional observations from a re-analysis of the deposited data

Results flagged for a closer look

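Among 56 groups of 4 or 5 arrays, 1 per probe and treatment, 5 held an array whose gap to its nearest neighbour was large against the range of the group by Dixon's criterion. Chance alone marks about 5% of groups. Vegfc stood at -2.51 on AP5 5, where the other AP5 arrays lay between -2.11 and -1.97. Vegfc also stood at -2.28 on Ro25 3, where the other Ro25 arrays lay between -1.87 and -1.76. Both arrays were low in astrocyte markers. Nrp2 on Ro25 3 was high at 0.11, against -0.29 to -0.18 on the other Ro25 arrays. Flt1 was low on AP5 2 at -3.56, with the other AP5 arrays between -3.16 and -3.13. Nrp1 was high on AP5 4 at 1.42, with the other AP5 arrays between 1.01 and 1.07.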

How the results depend on the processing

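The Kdr difference between AP5 and vehicle was above 0 in every alternative run. It was 0.95 (SE 0.38) with all spots in the background fit, 1.78 with the deposited log ratio, and 1.20 to 1.37 with each array left out in turn. No tested member passed in NVP or Ro25 against vehicle, or in NVP against Ro25, under any alternative run. Over all genes at most 4 passed in these comparisons, for NVP against vehicle without vehicle 2, so nothing is read from the absence of members. Of 1307 other member values, 42 moved by more than the replicate SD, and 97 turned sign. The number of genes called between AP5 and vehicle was 3463, against 863 with all spots in the background fit, 959 with 1 spread across arrays, 2118 from the red signal only and 10 once slide was a fixed block. In the red channel alone the direction turned for Slc1a2 (-0.055), Mlc1 (-0.017), Trem2 (0.020), Syt1 (-0.051), Tubb3 (-0.10), Sox10 (-0.032), Olig2 (-0.27) and Des (0.056). With slide as a fixed block it turned for Slc1a2 (-0.34), Mlc1 (-0.52), Ntsr2 (-0.51), Eng (0.025), Rbfox3 (-0.13), Tubb3 (-0.068), Sox10 (-0.58), Olig2 (-0.12), Pgf (-0.21) and Ptpn6 (0.13). The latter fit compares AP5 with vehicle through AP5 5, an array low in astrocyte markers, and vehicle 2 alone. The cause of these turns was not tested. Correlations of deviations gave no sign that replicate numbers pair the arrays. Of 27 same-number pairs, 8 had a correlation over 0.1, with a median of -0.20. Of 108 other pairs, 50 did, with a median of 0.06. Whether same-number arrays share a culture was not tested. With the replicate block, Kdr differed by 1.28 (SE 0.14), no member passed for NVP or Ro25, and 3053 genes were called between AP5 and vehicle. Signal over background limits Flt4, the second Kdr probe and the Kdr reference channel.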
